A study of Mus musculus with 20 samples.

Results

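The 79 cytoplasmic ribosomal protein genes were taken from the 43422 genes listed for each mouse abdominal aorta. A member had to be protein-coding in GENCODE M21 (mouse genome GRCm38), to carry a symbol of Rpl or Rps with a number and at most 2 further characters, or to be Rplp0, Rplp1, Rplp2 or Rpsa, and to have a mean of at least 1 FPKM over the 20 mice. FPKM is the number of fragments scaled to transcript length and to the number of mapped reads, so levels can be compared between genes per length. Of 90 genes with such a symbol, 84 were protein-coding and 5 of these had a mean below 1 FPKM, which left 46 genes of the large (60S) subunit and 33 of the small (40S) subunit. A further gene of this name pattern was not analysed here.

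RNA of the abdominal aorta was sequenced from 4 groups of 5 mice on day 14 of an infusion with either saline or Ang II, the latter at 1000 ng per kg and minute from a subcutaneous pump. Ang II (angiotensin II) is a vasoconstrictor peptide hormone that raises blood pressure and is used in this way to model dissecting aortic aneurysm. WT and Plod1-/- mice each received saline or Ang II. Plod1 encodes lysyl hydroxylase 1 (LH1), which hydroxylates lysines of collagen. All mice were C57BL/6 (C57Bl/6NCrl in the methods) and 6 months old per the labels, an age above the one the study's methods give for pump implantation, and the methods describe WT and Plod1-/- littermates of a heterozygous cross and the use of male mice. The comparisons ask how loss of LH1 alters the response of the aorta to Ang II. Plod1 had 22.8 to 29.7 FPKM in the 10 WT mice and at most 0.0415 FPKM in the 10 Plod1-/- mice. Whole vessel tissue was used, so fewer cells of a type and less RNA per cell cannot be told apart.

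Ribosomal proteins and ribosomal RNA form the 2 subunits of the ribosome. The 40S subunit holds the mRNA and reads its codons, and the 60S subunit joins the amino acids and releases the growing chain through an exit tunnel. In mammals, mRNAs for ribosomal proteins begin with a tract of pyrimidines (C and T in the gene) called the 5′ terminal oligopyrimidine or TOP motif. Through this tract the kinase complex mTORC1 and the RNA-binding protein LARP1 adjust their translation and stability together, and the proteins are needed in near-equal amounts. High levels of ribosomal protein mRNA are known from growing and dividing cells, while the smooth muscle cells of an adult artery wall divide rarely.

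The TOP tract lies at the transcription start, so windows of 30 bases around the longest pyrimidine run near the annotated start are shown for the 6 genes with a difference above 1 on the log2 scale between the Ang II-treated genotypes (Rps15a to Rpsa), for Rpl11 with the longest run among the genes described per mouse, and for Rps21 and Rpl10 with the 2 smallest log2 fold changes among members with a window under Ang II in Plod1-/- mice. Sequences are from RefSeq (GRCm38.p6), read 5′ to 3′ on the strand of the gene, and capitals mark the pyrimidine run, which need not be a TOP tract.
Rps15a (chr7:118116143-118116172, minus strand): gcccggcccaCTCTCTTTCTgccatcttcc
Rps12 (chr10:23787182-23787211, minus strand): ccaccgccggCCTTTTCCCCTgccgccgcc
Rpl12 (chr2:32961701-32961730, plus strand): gagcaggatccgTCTTTTCggctttcggct
Rps18 (chr17:33955648-33955677, minus strand): gtcacttccgCTCTCTCTTCCacaggaggc
Rpl22l1 (chr3:28805499-28805528, plus strand): cgcaagcccgTTCTCTTCCCacggctgcag
Rpsa (chr9:120127774-120127803, plus strand): tccggccgcccgTCCTTTCgcgctacccgg
Rpl11 (chr4:136053358-136053387, minus strand): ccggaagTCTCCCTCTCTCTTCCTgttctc
Rps21 (chr2:180257403-180257432, plus strand): gcacgagctaCTTCCTTTCTgcgctctcgc
Rpl10 (chrX:74270781-74270810, plus strand): cccctggctgtaaCTCTatggttgttacag

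RefSeq windows of 250 bases before to 50 bases after the start were found for 59 of the 79 members, 69 windows in all. A run of at least 8 pyrimidines that reached within 30 bases of the start was present in 46 of 69 member windows (66.7%) and in 27.3% of all 32851 windows. The letters CTCTTTC, which resemble a TOP tract, were in 30.4% of member windows and 8.16% of all windows, anywhere in the window on either strand. Where they lie within a run of at least 8 near the start they are counted under both measures. CCGGAAG, the core of ETS factor motifs, was in 37.7% and 8.86%, and AAGATGGC, the core of the YY1 motif, in 10.1% and 2.75%. TATAAA was in 8.70% of member windows and 13.6% of all windows. In the windows printed, the run is 4 bases long in Rpl10, 7 in Rpl12 and Rpsa, 10 in Rps15a, Rpl22l1 and Rps21, 11 in Rps12 and Rps18 and 17 in Rpl11. Counted from the annotated start, it begins at base -36 in Rps21, -22 in Rpl10, -15 in Rps15a and -2 in Rps18. It begins at base 2 in Rpl12 and Rpl22l1, 9 in Rps12, 14 in Rpl11 and 21 in Rpsa. In Rps21, Rpl10 and Rps15a the whole run lies before the annotated start. Start sites in these aortas were not measured.

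The members covered a range of levels from 4.98 to 1549 FPKM (mean over 20 mice), with a median of 207 FPKM. 61 members were above 100 FPKM and 11 above 500 FPKM. The highest means were those of Rplp1 (1549), Rplp0 (947), Rps15 (878), Rps3a1 (789.9) and Rpl8 (773), and these 5 genes made up 23.1% of the members' summed FPKM. The lowest were Rpl13a (4.98), Rpl22l1 (10.04), Rpl23a (23.9), Rps15a (30.3) and Rpl7l1 (30.6). Below the mean of 1 FPKM lay Rpl36al (0.701), Rpl24 (0.552), Rpl3l (0.336), Rpl39l (0.203) and Rpl10l (0.00706). The order of the members by level was nearly the same in the 4 groups, with a lowest Spearman coefficient of 0.982 between any 2 groups over the 79 genes, a description across genes that share libraries and lengths.

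These levels depend on how fragments were divided between a gene and its copies. Ribosomal protein mRNAs have many retrotransposed copies in mammalian genomes, and 75 of the 79 members had at least 1 annotated gene whose transcript matched at least 95% of the bases over at least 90% of the coding sequence. In the median member, 19.9% of the FPKM of the gene and its copies was listed under the copies. In 15 members the copies were listed above the gene itself, among them Rps27rt, whose main copy is the member Rps27. Rpl21 had 51 such copies with a summed mean of 405 FPKM against 31.2 FPKM of its own, and Rpl23a had 170.5 against 23.9. Rpl13a, listed lowest, had 19.0 FPKM in copies against 4.98 of its own. Rpl8, Rps3 and Rps27l had no such copy. The level of a single member is therefore uncertain where copies are listed beside it, and its changes were also computed with the FPKM of copies outside the members added.

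**Figure D1:**
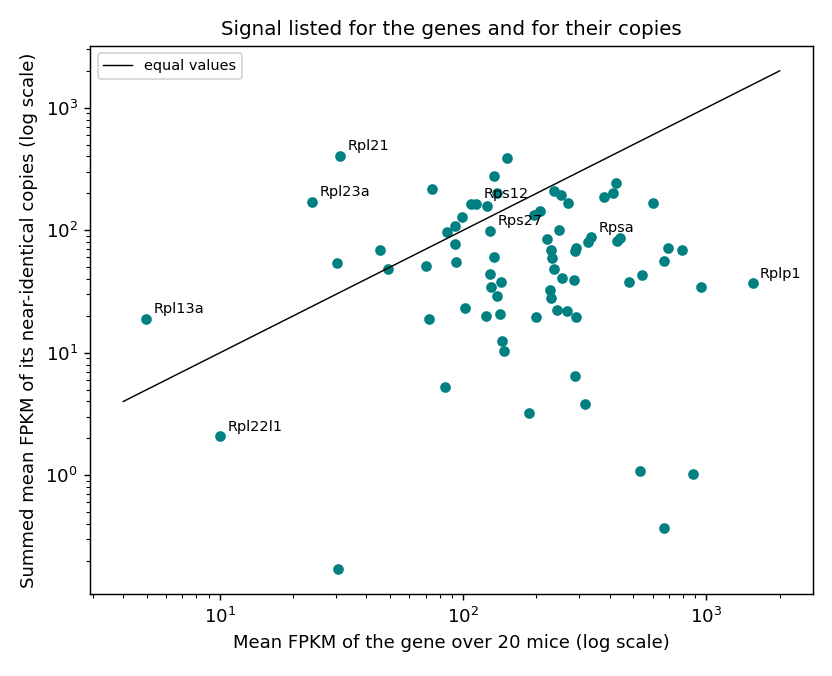
Each point is a member, with its mean FPKM over 20 mice on the x axis and the summed mean FPKM of its near-identical copies on the y axis, both on log scales, and the line marks equal values. The 15 points above the line, Rpl21, Rpl23a and Rpl13a among them, are genes listed below their copies, and members without a copy are not drawn.

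Summed over the members, the aorta of Ang II-treated Plod1-/- mice had the most ribosomal protein mRNA and that of Ang II-treated WT mice the least. The sum was 21095 ± 1969 FPKM (SD, n = 5) in WT mice under saline and 17051 ± 2969 under Ang II, and 19492 ± 3711 in Plod1-/- mice under saline and 27746 ± 4257 under Ang II (n = 5 each). The ranges were 18271 to 22997, 13596 to 21819, 16750 to 25953 and 21559 to 31739. Each of these ranges overlapped the others in part, and the highest saline-treated Plod1-/- mouse (replicate 3) and the highest Ang II-treated WT mouse (replicate 1) lay apart from the 4 others of their groups.

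Transcripts of the mitochondrial genome took 23.3 ± 5.78% of all FPKM in WT mice under Ang II and 11.1 ± 2.94% under saline, and in Plod1-/- mice 13.4 ± 2.37% under saline and 13.3 ± 4.57% under Ang II. A larger mitochondrial share leaves less for the other genes, so the members' share of the remaining FPKM was also taken. It was 6.61 ± 0.420%, 5.47 ± 0.739%, 6.14 ± 0.872% and 8.27 ± 0.859% in the same order of groups as the sums. The order of the groups stayed as it was. The 60S genes made up slightly more than the 40S genes, with a ratio of 1.19 to 1.21 in saline-treated and 1.23 to 1.31 in Ang II-treated Plod1-/- mice, ranges that do not overlap, and of 1.17 to 1.21 and 1.17 to 1.30 in WT mice, ranges that do.

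**Figure D2:**
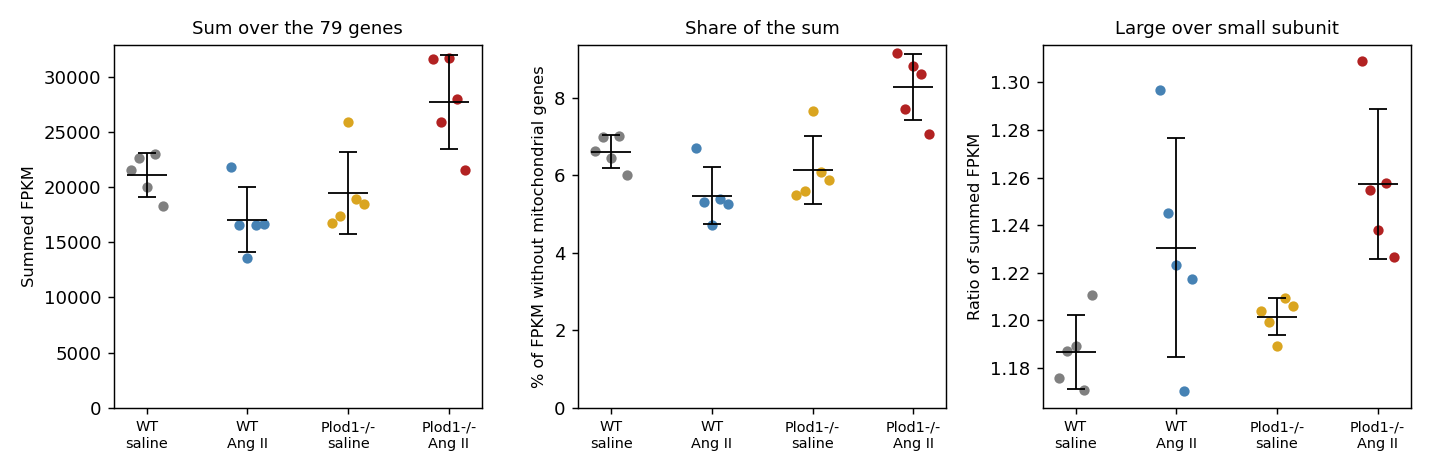
Points are single mice (5 per group), long dashes group means and bars ± 1 SD, for the summed FPKM of the 79 genes (left), their share of the FPKM without mitochondrial genes in % (middle) and the ratio of 60S to 40S sums (right, axis not from 0). Ang II-treated Plod1-/- mice lie from 21559 to 31739 FPKM and 4 of the 5 Ang II-treated WT mice at or below 16677 FPKM.

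Under Ang II, ribosomal protein genes rose in Plod1-/- mice. Tested with limma on log2(FPKM + 1), 47 of 79 members were higher in Ang II-treated than in saline-treated Plod1-/- mice at a Benjamini-Hochberg adjusted p below 0.05 and 0 were lower, against 23.8% higher and 20.1% lower of all 12333 genes tested. The members called higher were 59.5% of the members. The median log2 fold change was 0.49 over the members and 0.05 over all genes tested, and 78 of 79 estimates were above 0. The groups did not overlap for 16 members (20.3%, against 14.2% of all genes in that direction).

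The largest increases were those of Rpsa, Rplp0, Rpl41, Rps19 and Rps15a. Rpsa (ENSMUSG00000032518, chromosome 9, 120127689 to 120132369) encodes a 40S protein that is also known as a laminin receptor. Its FPKM was 222, 231, 349, 234 and 249 in saline-treated and 623, 432, 620, 519 and 415 in Ang II-treated Plod1-/- mice, so that every Ang II-treated mouse lay above every saline-treated one (log2 fold change 1.02 ± 0.18 SE, adjusted p = 0.00114). Rpsa was the single member past the threshold for a differentially expressed gene (DEG), an adjusted p below 0.05 with a log2 fold change above 1 in size, against 8.38% of all genes in that direction and 5.51% in the other. Rpsa was no DEG without saline-treated replicates 1, 2 or 4 or Ang II-treated replicates 1 or 3, and 3 and 2 members were DEGs without saline-treated replicate 3 and Ang II-treated replicate 5. Rpl41, a very short 60S protein, had 388, 411, 653, 471 and 490.1 FPKM under saline and 1178, 674, 1114, 834 and 712 FPKM under Ang II, again without overlap (log2 fold change 0.89 ± 0.21 SE, adjusted p = 0.00663). Rps19, whose human counterpart is the gene most often mutated in Diamond-Blackfan anemia, rose from 46.5, 53.3, 75.7, 56.3 and 51.3 to 115, 96.4, 114, 119 and 77.4 FPKM (log2 fold change 0.87 ± 0.16 SE, adjusted p = 0.00154). The highest saline-treated mouse was replicate 3 for each of these 3 genes.

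At the other end, Rpl10, Rps21, Rpl23a, Rpl4 and Rpl21 had estimates of -0.02, 0.09, 0.13, 0.17 and 0.20 with adjusted p from 0.343 to 0.920. Rpl10, a 60S protein that joins the subunit late in the cytoplasm, had 278, 277, 389, 298 and 291 FPKM under saline and 317, 316, 343, 300.4 and 234 FPKM under Ang II, overlapping ranges with means of 307 ± 46.9 and 302 ± 41.1. The spread of the 79 estimates was 0.21 (SD) at a median standard error of 0.16, and 12 members lay more than 2 of their standard errors from the members' median. Rps6, the 40S protein phosphorylated by S6 kinase, had 0.40 (adjusted p = 0.0561), and Rpl3 had 0.42 (adjusted p = 0.0346). Without saline-treated Plod1-/- replicate 3, 66 members were higher (21.3% of all genes). The count was 29, 30 and 29 without saline-treated replicates 1, 2 and 5, and 29 and 31 without Ang II-treated replicates 3 and 4. Of all genes, 20.0, 21.3 and 19.8% were then higher without these saline-treated and 18.4 and 17.9% without these Ang II-treated replicates.

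In WT mice the same infusion went with lower levels. 24 of 79 members (30.4%) were lower in Ang II-treated than in saline-treated WT mice and 0 were higher, against 21.5% lower and 16.5% higher of 11994 genes tested. The median log2 fold change was -0.33 over the members and -0.14 over all genes, 76 of 79 estimates were below 0, and no member was a DEG (2.28% of all genes were DEGs in that direction and 6.38% in the other). By limma 46 members had an unadjusted p below 0.05, in either direction, as did 6039 of the 11994 genes. The groups did not overlap for 2 members, Rpl10a and Rpl4 (2.53%, against 6.88% of all genes). The number of calls rested on single mice. It was 56 without Ang II-treated WT replicate 1, where 20.3% of all genes were lower. It was 7, 1, 12 and 2 without saline-treated replicates 1, 2, 3 and 4. Without Ang II-treated replicates 2, 3 and 5 it was 3, 1 and 3. In the fits without these saline-treated replicates or Ang II-treated replicates 2, 3 or 5, 10.1 to 17.5% of all genes were lower. The share of members called lower was below that of all genes in each of these fits. The higher share of members with all mice therefore did not hold there. With one mouse left out, the members' median stayed between -0.43 and -0.25, and that of all genes between -0.18 and -0.11.

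The largest decreases were those of Rpl10a, Rpl22l1, Rpl10, Rpl13 and Rps3a1. Rpl10a, a 60S protein at the stalk that meets departing tRNA, had 259.6, 295, 268, 302 and 259.7 FPKM in saline-treated and 227, 182, 165, 197 and 178 FPKM in Ang II-treated WT mice (log2 fold change -0.55 ± 0.12 SE, adjusted p = 0.00710). Rpl10 fell from 298, 347, 319.9, 356 and 277 to 277, 218, 186, 275 and 201 FPKM (log2 fold change -0.48 ± 0.15 SE, adjusted p = 0.0275), with Ang II-treated replicate 1 reaching the saline range. Rpl13 fell by 0.48 and Rps3a1 by 0.47 on the log2 scale (adjusted p = 0.0202 and 0.0327). Rps27l (0.12, adjusted p = 0.477), Rps19 (0.03, adjusted p = 0.901), Rplp2 (0.02, adjusted p = 0.907), Rpl36 (-0.04, adjusted p = 0.868) and Rpl11 (adjusted p = 0.998) had the estimates nearest to or above 0 and none of these 5 passed the test.

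**Figure D3:**
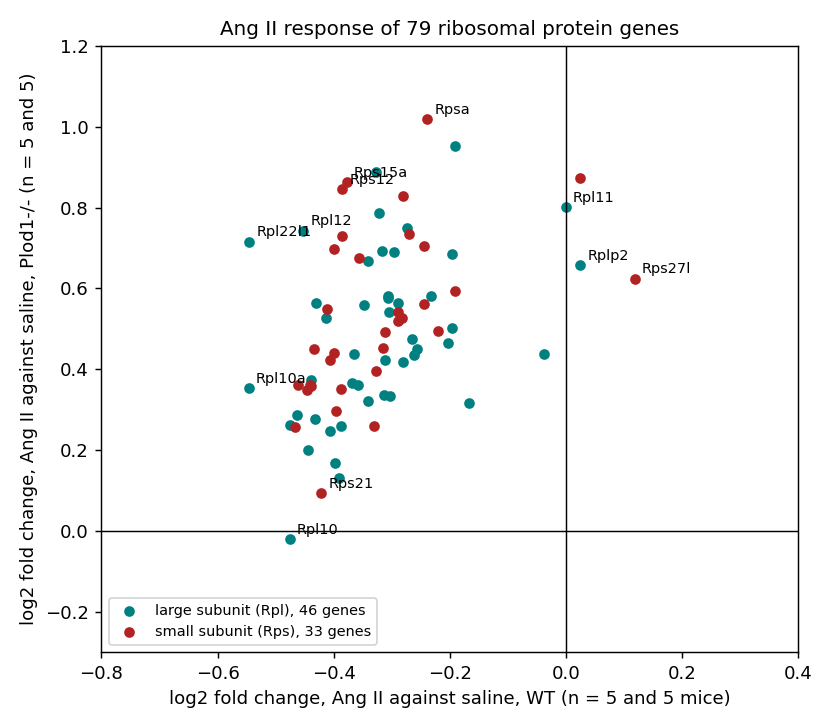
Each point is a member, with its log2 fold change under Ang II in WT mice on the x axis and in Plod1-/- mice on the y axis (5 against 5 mice each, no mouse in both), coloured by subunit. 75 of the 79 points lie in the upper left part, above 0 in Plod1-/- and below 0 in WT mice, and Rpl10 lies lowest at -0.02.

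Ribosomal protein genes were higher in Plod1-/- than in WT mice under Ang II. 67 of 79 members (84.8%) passed the test as higher in Plod1-/- mice and 0 as lower, against 20.8% higher and 10.4% lower of 12356 genes tested. All 79 estimates were above 0, also under quantile normalization and both rescalings, and ran from 0.33 to 1.14 with a median of 0.70 (0.12 over all genes). With quantile normalization, 16.3% of all genes were higher and 16.7% lower, the median of all genes was -0.03 and that of the members 0.65. The groups did not overlap for 41 members (51.9%, against 10.4% of all genes, and 4.62% in the other direction). The smallest of the 79 estimates were those of Rpl7l1 (0.33), Rpl23a (0.34), Rpl10 (0.39), Rps21 (0.42) and Rps15 (0.43), with adjusted p from 0.0375 to 0.132. The comparison shares mice with both of those above, so it is not a separate test of them.

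6 members were DEGs (7.59%, against 7.45% of all genes, and 3.67% in the other direction): Rps15a, Rpl22l1, Rps12, Rpl12, Rpsa and Rps18, whose start windows are printed above. Rps15a, Rps12 and Rpl12 were listed below their near-identical copies, with means of 30.3, 113 and 125 FPKM against 53.6, 165 and 158 in copies. All 21 alternatives, that with added copies among them, kept these 3 genes higher. Their lowest log2 fold changes over the alternatives were 1.04, 0.99 and 0.94. Rps15a, a 40S protein, had 29.0, 19.4, 15.7, 22.6 and 18.8 FPKM in Ang II-treated WT and 44.0, 41.7, 57.8, 48.7 and 43.2 FPKM in Ang II-treated Plod1-/- mice (log2 fold change 1.14 ± 0.17 SE, adjusted p = 0.00183). Rps12 had 110.1, 75.9, 60.2, 78.0 and 80.1 and 189.6, 146, 194, 187 and 145 FPKM (log2 fold change 1.10 ± 0.18 SE, adjusted p = 0.00254). In both genes the groups were apart, with Ang II-treated WT replicate 1 the highest of its group.

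Rpl12, a 60S protein at the base of the P stalk, had 122, 78.0, 68.9, 96.4 and 74.9 FPKM in WT and 248, 151, 197, 175 and 147 FPKM in Plod1-/- mice under Ang II (log2 fold change 1.06 ± 0.20 SE, adjusted p = 0.00503). Rps18, a 40S protein, had 153, 96.4, 77.0, 97.1 and 98.8 and 221, 214, 218, 212 and 168 FPKM (log2 fold change 1.01 ± 0.18 SE, adjusted p = 0.00433), and Rpsa 356, 256, 198, 219 and 271 and 623, 432, 620, 519 and 415 FPKM (log2 fold change 1.01 ± 0.20 SE, adjusted p = 0.00657). Without mitochondrial genes and with equal sums, 2 members were DEGs and 63 were higher (15.5% of all genes were higher). Leaving out Ang II-treated WT replicate 1 gave 14 DEGs, and leaving out Ang II-treated Plod1-/- replicate 5 gave 13. Leaving out Ang II-treated WT replicate 3 gave 2 DEGs and 43 members higher, against 12.9% of all genes higher.

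**Figure D4:**
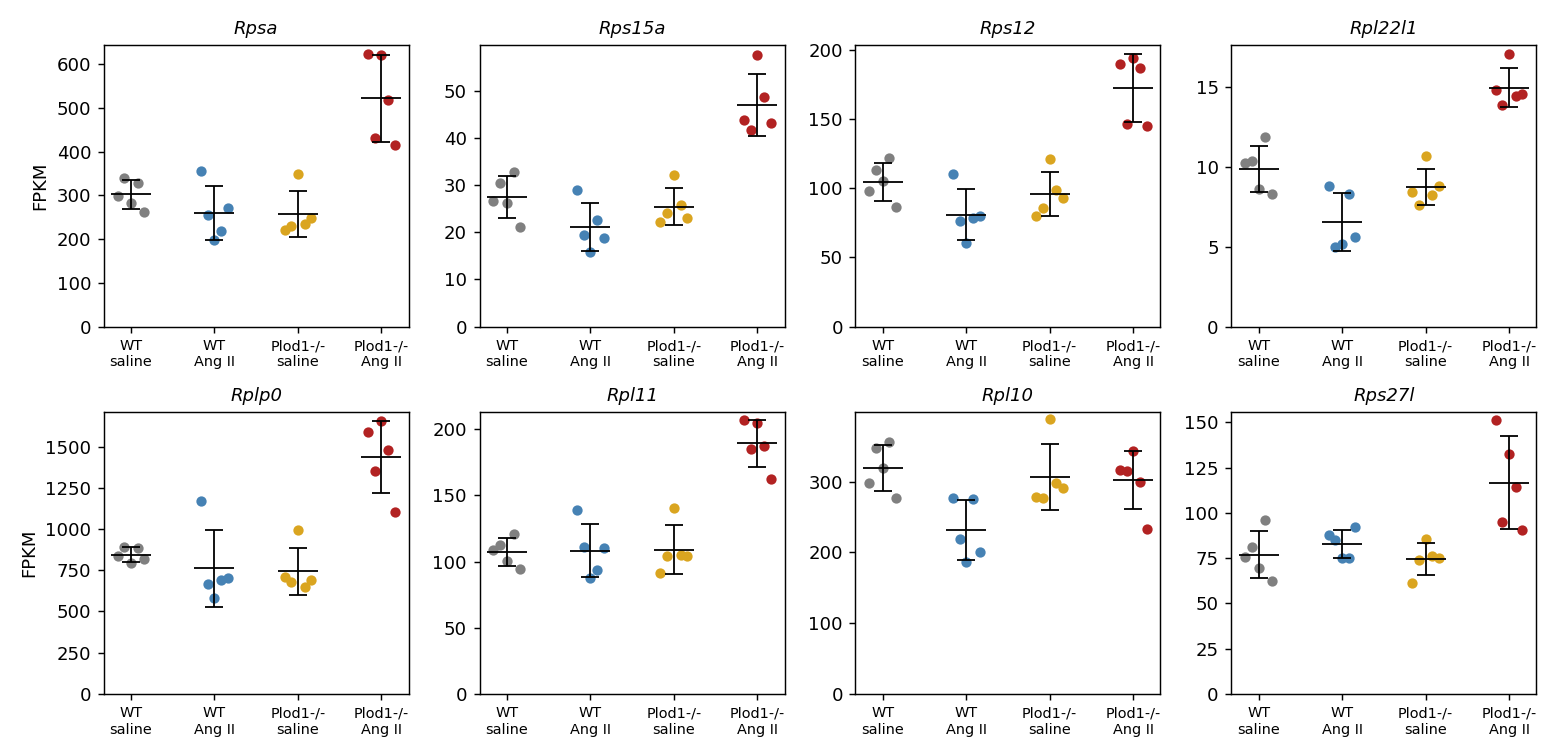
FPKM of 8 members in each mouse (points), with group means (long dashes) and ± 1 SD (bars, n = 5), axes from 0. Rpsa, Rps15a, Rps12 and Rpl22l1 separate Ang II-treated Plod1-/- mice from the other 15, while Rpl10 has its lowest values in Ang II-treated WT mice and similar means in both Plod1-/- groups.

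Under saline the genotypes did not differ at this threshold. By limma, 0 members were higher and 0 lower in saline-treated Plod1-/- than in saline-treated WT mice (3.33% and 3.23% of 11999 genes), and 1 member, Rpl13a, had an unadjusted p below 0.05 (estimate -0.27, adjusted p = 0.116), against 3251 of the 11999 genes. The estimates ran from -0.27 to 0.01 with a median of -0.11, 76 of 79 were below 0, and the groups overlapped for every member (4.22% and 5.30% of all genes did not overlap, higher and lower). Without saline-treated Plod1-/- replicate 3 the median was -0.22 and 1 member was lower. The 5 lowest estimates were those of Rpl13a, Rps2 (-0.25), Rpsa (-0.25), Rpl41 (-0.24) and Rpl18 (-0.22), and none of them passed the test.

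The difference between the 2 responses was tested as an interaction of genotype and Ang II over all 20 mice. It was past the threshold for 72 of 79 members (91.1%), all with a more positive response in Plod1-/- mice, against 23.8% of 13263 genes in that direction and 14.1% in the other. The median difference of the log2 fold changes was 0.80 over the members and 0.12 over all genes. Quantile normalization moved these medians to 0.75 and -0.01. The difference was above 1 for 16 members (9.69% of all genes, and 6.36% below -1), with the largest for Rpl22l1 (1.26), Rpsa (1.26), Rps15a (1.24), Rps12 (1.23) and Rpl41 (1.21). The 7 members that did not pass were Rpl10 (0.46, adjusted p = 0.0792), Rpl36 (0.48, adjusted p = 0.145), Rps27l (0.51, adjusted p = 0.0564), Rps21 (0.51, adjusted p = 0.0643), Rpl23a (0.52, adjusted p = 0.0679), Rps15 (0.59, adjusted p = 0.0515) and Rplp2 (0.63, adjusted p = 0.0525).

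7 members were called in both genotypes, higher in Plod1-/- and lower in WT mice: Rpl22l1, Rpl34, Rpl35a, Rpl5, Rps25, Rps26 and Rps7. A further 40 were called in Plod1-/- mice alone, 17 in WT mice alone and 15 in neither. The highest group mean was that of Ang II-treated Plod1-/- mice for 77 members, and the lowest that of Ang II-treated WT mice for 72. The 2 exceptions at the top were Rpl10 and Rpl23a, both with the highest mean in saline-treated WT mice. Over the 20 mice, each member's log2 level was correlated with the mean of the other 78 by 0.713 (Rpl10) to 0.990, and after the group means were subtracted by 0.523 (Rpl7l1) to 0.989, as a description of points that share libraries and their scaling.

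The counts by role below stand beside 23.8% of all genes higher under Ang II in Plod1-/- mice, 21.5% lower in WT mice and 20.8% higher between the Ang II-treated genotypes (59.5%, 30.4% and 84.8% of all members), and no role was tested against the other members. By role, the acidic P stalk, which recruits the GTPase factors of translation, rose in all 3 of its genes in Plod1-/- mice under Ang II. Rplp0 had 709, 676, 996, 647 and 689 FPKM in saline-treated and 1589.8, 1355, 1655, 1479 and 1103 FPKM in Ang II-treated Plod1-/- mice (log2 fold change 0.95 ± 0.18 SE, adjusted p = 0.00179). Rplp1 rose by 0.75 (adjusted p = 0.0196) and Rplp2 by 0.66 (adjusted p = 0.0192) on the log2 scale. In WT mice the 3 genes had log2 fold changes of -0.19, -0.27 and 0.02 (adjusted p = 0.413, 0.282 and 0.907), none past the threshold. In WT mice under Ang II, replicate 1 had 1172 FPKM of Rplp0 and the 4 others 582 to 705 FPKM.

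Rpl5 and Rpl11 form the 5S ribonucleoprotein with 5S RNA, which outside the ribosome binds MDM2 and stabilizes p53. Rpl11 had 91.1, 104, 141, 105 and 104 FPKM under saline and 207, 185, 205, 187 and 162 FPKM under Ang II in Plod1-/- mice, without overlap (log2 fold change 0.80 ± 0.13 SE, adjusted p = 8.62e-04). In WT mice its means were 107 ± 10.3 and 108 ± 19.8 FPKM (adjusted p = 0.998). Rpl5 rose by 0.36 in Plod1-/- (adjusted p = 0.0393) and fell by 0.36 in WT mice (adjusted p = 0.0450). Of the alternatives, 11 of 21 kept the call of Rpl5 in Plod1-/- mice and 11 of 20 that in WT mice.

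Of 8 proteins that line or surround the exit tunnel, 3 rose in Plod1-/- mice under Ang II: Rpl39 (0.69, adjusted p = 0.00491), Rpl17 (0.54, adjusted p = 0.0146) and Rpl19 (0.50, adjusted p = 0.0398). Rpl26, Rpl31 and Rpl35 had 0.32, 0.37 and 0.53, and none passed the test, as Rpl4 and Rpl23a above. In WT mice 2 of the 8 fell, a share near that of all genes (21.5%), Rpl4 (-0.40, adjusted p = 0.0367) and Rpl23a (-0.39, adjusted p = 0.0382). Between the Ang II-treated genotypes 6 of the 8 were higher in Plod1-/- mice, from Rpl4 (0.50) to Rpl39 (0.99), and Rpl19 (0.56, adjusted p = 0.0508) and Rpl23a (0.34, adjusted p = 0.127) did not pass.

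Of 8 proteins at the mRNA channel and the decoding site of the 40S subunit, 5 rose in Plod1-/- mice: Rpsa, Rps28 (0.73, adjusted p = 0.00518), Rps2 (0.71, adjusted p = 0.0271), Rps26 (0.70, adjusted p = 0.0163) and Rps3 (0.54, adjusted p = 0.0151). Rps14, Rps23 and Rps15 had 0.35, 0.30 and 0.26 without passing. In WT mice 1 of the 8 fell, against 21.5% of all genes, Rps26 (-0.40, adjusted p = 0.0468), a protein next to the mRNA exit. Under Ang II 7 of the 8 were higher in Plod1-/- than in WT mice, all but Rps15 (0.43, adjusted p = 0.132). Rps27a, made as a fusion with ubiquitin, rose by 0.73 in Plod1-/- mice (adjusted p = 0.00218) and was 1.00 higher than in WT mice under Ang II (adjusted p = 0.00394). Of 10 genes whose human counterparts are mutated in Diamond-Blackfan anemia, 9 rose in Plod1-/- mice (23.8% of all genes), 4 fell in WT mice (21.5%) and 10 were higher in Plod1-/- mice under Ang II (20.8%).

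The genes Fau and Rack1 encode ribosomal proteins under other names and were not members. Rack1, a 40S scaffold protein, had 116, 109, 168, 109 and 114 FPKM in saline-treated and 198, 186, 217, 211 and 163 FPKM in Ang II-treated Plod1-/- mice, where saline-treated replicate 3 alone reached the Ang II range (log2 fold change 0.67 ± 0.15 SE, adjusted p = 0.00385), and was 0.86 higher than in WT mice under Ang II (adjusted p = 0.00514). Fau, fused to a ubiquitin-like protein, had 0.39 (adjusted p = 0.150) in Plod1-/- mice.

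4 members lie on the X chromosome: Rpl10, Rpl36a, Rpl39 and Rps4x. Rps4x, a 40S protein, had 481, 489, 436, 501 and 386 FPKM in saline-treated and 407, 307, 279, 368 and 309 FPKM in Ang II-treated WT mice (log2 fold change -0.46 ± 0.14 SE, adjusted p = 0.0262). In Plod1-/- mice it had 379, 372, 568, 392 and 411 and 502, 514, 627, 589 and 475 FPKM (log2 fold change 0.36 ± 0.15 SE, adjusted p = 0.0811), so the decrease in WT mice passed the test and the estimate in Plod1-/- mice did not. Rpl36a rose in Plod1-/- mice (0.58, adjusted p = 0.00622), and Rpl10 was the one of the 4 that did not pass between the Ang II-treated genotypes (0.39, adjusted p = 0.109).

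Some members are paralogs of another ribosomal protein. Rps27 (ENSMUSG00000090733, chromosome 3, 90212522 to 90213651), Rps27rt and Rps27l (ENSMUSG00000036781, chromosome 9, 66946086 to 66949516) encode the same 40S protein or a close relative, and their first 60 coding bases are shown because they decide which of the values can be told apart. Lower case marks bases shared with Rps27 and capitals those that differ (GENCODE M21 transcripts, 5′ to 3′).
Rps27: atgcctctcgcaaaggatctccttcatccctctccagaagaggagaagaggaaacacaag
Rps27rt: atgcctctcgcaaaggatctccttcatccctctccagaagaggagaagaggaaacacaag
Rps27l: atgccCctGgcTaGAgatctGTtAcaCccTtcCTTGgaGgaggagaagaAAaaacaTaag
Over the 252 coding bases Rps27rt had 0 differences from Rps27 and Rps27l 60 (76.2% identity). Coding fragments of Rps27 and Rps27rt cannot be told apart, and their estimates were alike (0.36 and 0.36 in Plod1-/-, -0.44 and -0.44 in WT mice). Rps27l, known as a target of p53, is distinct in sequence and had no near-identical copy. It had 61.3, 73.7, 85.7, 76.3 and 75.1 FPKM in saline-treated and 151, 95.2, 133, 114 and 90.4 FPKM in Ang II-treated Plod1-/- mice, without overlap (log2 fold change 0.62 ± 0.16 SE, adjusted p = 0.00888), and 62.3 to 96.1 and 74.9 to 92.1 FPKM in the WT groups. Its estimate in WT mice was 0.12 where Rps27rt fell by 0.44.

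Rpl22l1 (ENSMUSG00000039221, chromosome 3, 28805436 to 28807424), a low-level paralog, had 10.2, 10.4, 8.62, 11.9 and 8.32 and 8.78, 5.01, 5.17, 8.29 and 5.59 FPKM in saline- and Ang II-treated WT mice and 8.41, 7.63, 10.7, 8.21 and 8.81 and 14.8, 13.9, 17.1, 14.4 and 14.6 FPKM in saline- and Ang II-treated Plod1-/- mice. It fell in WT (log2 fold change -0.55 ± 0.16 SE, adjusted p = 0.0250) and rose in Plod1-/- mice (log2 fold change 0.72 ± 0.10 SE, adjusted p = 3.39e-04). At so low a level the log2(FPKM + 1) scale understates the change. Rpl7l1, a relative of Rpl7, rose in Plod1-/- mice (log2 fold change 0.32 ± 0.09 SE, adjusted p = 0.0195).

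Of the 5 protein-coding genes under the mean threshold, 4 (Rpl3l, Rpl24, Rpl36al and Rpl39l) were compared on the log2(FPKM + 1) scale with an exact permutation test (two-sided, 16 tests in all), whose smallest p with 5 mice against 5 is 0.00794, and Rpl10l was not tested. Rpl36al had 0.169 to 0.844 FPKM in saline-treated and 0.849 to 1.47 FPKM in Ang II-treated Plod1-/- mice, which do not overlap (exact p = 0.00794, adjusted p = 0.0423). Between the Ang II-treated genotypes it had the same exact p, and in WT mice the adjusted p was 0.106. Rpl24 was lower in Ang II-treated WT mice (0.215 to 0.517 FPKM) than in saline-treated ones (0.614 to 0.825 FPKM, exact p = 0.00794, adjusted p = 0.0423). Of the FPKM of gene and copies, 97.7% for Rpl24 and 86.0% for Rpl36al was listed under near-identical copies, which were not added here. Rpl3l, the muscle form of Rpl3, was at 2.57, 1.33 and 1.53 FPKM in Ang II-treated WT replicates 2, 3 and 5 and at most 0.179 FPKM in the other 17 mice (exact p = 0.0159, adjusted p = 0.0635 in WT mice). The same 3 mice had Acta1, skeletal muscle actin, at 141, 77.2 and 111 FPKM, against at most 8.30 FPKM in the others, and the part of such tissue in this value was not tested.

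Rps4l (ENSMUSG00000063171, chromosome 6, 148354656 to 148355598) is a transcribed processed pseudogene in GENCODE M21 and no member, with 79.9% identity to Rps4x over 783 aligned bases. It rose under Ang II in both genotypes. Its FPKM was 14.9, 19.4, 16.5, 13.6 and 14.3 in saline-treated and 35.5, 54.4, 38.2, 19.2 and 48.2 in Ang II-treated WT mice (log2 fold change 1.19 ± 0.24 SE, adjusted p = 0.00460). In Plod1-/- mice it was 11.2, 15.1, 9.29, 10.1 and 10.4 and 41.6, 34.8, 29.2, 34.7 and 37.6, without overlap (log2 fold change 1.59 ± 0.14 SE, adjusted p = 3.46e-05). The responses did not pass the test of a difference between the genotypes (0.40, adjusted p = 0.283), where that of Rps4x did (0.82, adjusted p = 0.00386).

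Named pseudogenes of ribosomal proteins were called in the same directions as the members. Of 253 such genes listed, 80 were tested in Plod1-/- mice and 42 rose under Ang II, 22 of 76 fell in WT mice, and 55 of 79 were higher in Plod1-/- than in WT mice under Ang II, with none the other way. The shares of all genes were 23.8%, 21.5% and 20.8%. Where a gene and such a copy share their sequence, their fragments cannot be told apart in these values. When the FPKM of near-identical copies was added to each member, an alternative chosen after the data were seen, 45 members were higher in Plod1-/- mice, 26 were lower in WT mice and 69 were higher between the Ang II-treated genotypes. Copies that are members themselves were not added, so Rps27 and Rps27rt stayed separate. With copies added the shares of all genes stayed at 23.8%, 21.5% and 20.8%. Rpl13a no longer passed in Plod1-/- mice with its copies added (adjusted p = 0.275).

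Other genes of translation were read from lists, and no list was tested as a set. Counts in this and the following list paragraphs stand beside the shares of all genes tested. Under Ang II these were 23.8% higher and 20.1% lower in Plod1-/- mice, and 16.5% higher and 21.5% lower in WT mice. Between the Ang II-treated genotypes 20.8% were higher and 10.4% lower in Plod1-/- mice. Of 18 ribosome biogenesis genes, 15 rose in Plod1-/- mice, 7 fell in WT mice and 14 were higher in Plod1-/- mice under Ang II, with medians of 0.44, -0.22 and 0.52. Fbl, the methyltransferase of box C/D particles, rose by 0.92 in Plod1-/- mice (adjusted p = 0.00108), and Nop58, its partner, by 0.85 (adjusted p = 6.81e-05) where it fell by 0.64 in WT mice (adjusted p = 0.0110). Ncl, nucleolin, rose by 0.28 (adjusted p = 0.0204) and fell by 0.62 (adjusted p = 0.00562). Of 7 chaperones of single ribosomal proteins, 3 rose and 1 fell in Plod1-/- mice, and 1 fell in WT mice. Ltv1, which escorts Rps3, rose by 0.50 (adjusted p = 0.00130) and Tsr2, which escorts Rps26, fell by 0.36 (adjusted p = 0.0394) in Plod1-/- mice.

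Of 8 other transcripts with a TOP motif, 5 rose in Plod1-/- mice (Pabpc1, Hnrnpa1, Snhg1, Npm1 and Tpt1), 5 fell in WT mice and 7 were higher in Plod1-/- mice under Ang II. Npm1, a nucleolar chaperone, had 94.2, 84.5, 106, 94.2 and 95.3 FPKM under saline and 133, 135, 173, 149 and 135 FPKM under Ang II in Plod1-/- mice, without overlap (log2 fold change 0.60 ± 0.11 SE, adjusted p = 0.00146). Of 8 elongation factor genes 3 rose in Plod1-/- mice, Eef1b2 (0.75, adjusted p = 0.00214), Eef1g (0.65, adjusted p = 0.00551) and Eif5a (0.61, adjusted p = 0.0108). Eef1a1 and Eef2, the most abundant, had 0.08 (adjusted p = 0.727) and 0.00 (adjusted p = 0.999). Of 30 initiation factor genes 8 rose and 2 fell in Plod1-/- mice, and 1 rose and 8 fell in WT mice. The 8 that rose in Plod1-/- mice and the 8 that fell in WT mice were shares near those of all genes (23.8% and 21.5%).

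Of 16 genes of mTORC1 and the control of TOP mRNAs, 5 rose and 2 fell in Plod1-/- mice, and 5 rose and 1 fell in WT mice. Larp1, which binds the TOP cap, rose in Plod1-/- mice (0.41, adjusted p = 0.00160). Mtor, the kinase itself, rose in WT mice (0.61, adjusted p = 0.00818) and was -0.19 in Plod1-/- mice (adjusted p = 0.432). Eif4ebp2, a repressor of cap-dependent translation, was lower under Ang II in Plod1-/- mice (-0.51, adjusted p = 0.00892) and higher in WT mice (0.40, adjusted p = 0.0323). These are mRNA levels, and kinase activity and translation were not measured.

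Mitochondrial ribosomal proteins, encoded by nuclear Mrpl and Mrps genes and part of another ribosome, had the opposite order in the Ang II-treated groups. Of 77 such genes 52 rose and 1 fell in WT mice under Ang II (median 0.47), and 17 rose and 1 fell in Plod1-/- mice (median 0.16). The 17 that rose in Plod1-/- mice were a share near that of all genes (23.8%). Under Ang II 17 were lower and 1 higher in Plod1-/- than in WT mice. Their summed FPKM ran from 1141 to 1233 in saline-treated and from 1272 to 2328 in Ang II-treated WT mice, which do not overlap. In Plod1-/- mice it ran from 1156 to 1429 under saline and from 1217 to 1625 under Ang II. The ranges of the Ang II-treated genotypes overlap, so the opposite order is one of means and medians.

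**Figure D5:**
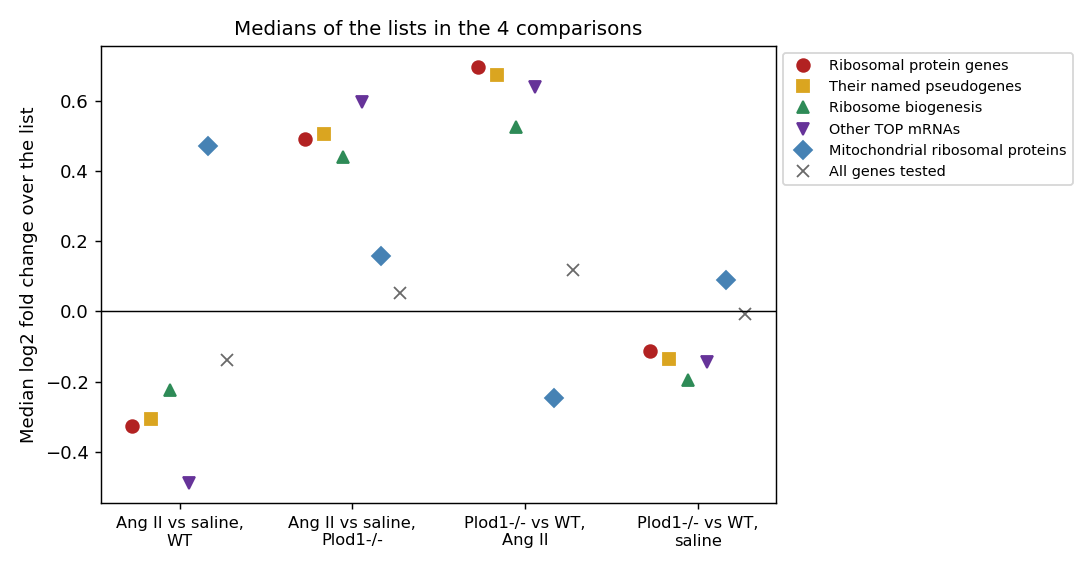
Median log2 fold change of each gene list (symbols) in the 4 comparisons of 5 against 5 mice. In WT mice under Ang II the cytoplasmic members lie at -0.33 and the mitochondrial ribosomal proteins at 0.47, and between the Ang II-treated genotypes at 0.70 and -0.25.

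Markers of cell types moved with these groups. Under Ang II 23.8% of all genes were higher and 20.1% lower in Plod1-/- mice, and 16.5% higher and 21.5% lower in WT mice. The tissue label was met by smooth muscle markers (6 genes), whose summed FPKM ran from 14089 to 20407 in saline-treated WT and 15028 to 20704 in saline-treated Plod1-/- mice. 5509 to 17037 FPKM were found in Ang II-treated WT and 2297 to 16760 FPKM in Ang II-treated Plod1-/- mice, and 6 of 6 fell under Ang II in Plod1-/- and 4 of 6 in WT mice. In Ang II-treated Plod1-/- mice 6 of 6 macrophage, 4 of 4 neutrophil, 5 of 5 red cell and 3 of 3 tested cycling markers rose. The macrophage sum was 56.9 to 208 FPKM under saline and 633 to 3682 FPKM under Ang II in Plod1-/- mice, and 127 to 245 and 199 to 1288 FPKM in WT mice. The neutrophil sum, 1.26 to 2.93 FPKM in saline-treated and 154 to 708 FPKM in Ang II-treated Plod1-/- mice, was near 0 in the former. The cycling sum was 26.1 to 33.4 and 45.9 to 100.4 FPKM in the Plod1-/- and 32.0 to 40.2 and 20.8 to 32.4 FPKM in the WT groups. Of 5 fibroblast markers 1 rose and of 5 endothelial markers 1 rose in Plod1-/- mice, and lymphocyte markers summed to at most 12.9 FPKM in any mouse. In Ang II-treated WT mice 6 of 6 tested adipocyte markers rose, with sums of 28.2 to 436 and 778 to 4648 FPKM, and 3 of 4 tested skeletal muscle markers. The part of these cell types in the ribosomal protein values was not tested.

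Estimated from the lowest FPKM values, the libraries had 0.896 to 1.08 of the depth of a reference library. Only ratios close to the reference entered this estimate, so it could not have shown a large difference in depth. The absolute depth is unknown. Xist, the RNA of the inactive X chromosome, stood out in 2 libraries of Plod1-/- mice, saline replicate 5 (15.1 FPKM) and Ang II replicate 1 (7.93 FPKM), with 0.0328 FPKM or less in each of the 18 others, although the study's methods describe male mice. Without these 2 libraries 25 of 79 members rose in Plod1-/- mice at a median of 0.42, against 26.7% of all genes and a median of 0.08. Between the Ang II-treated genotypes 60 members were higher in Plod1-/- mice (26.7% of all genes). The interaction test was passed by 69 members (27.0% of all genes in that direction).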

How the data were processed

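RNA of 20 mouse abdominal aortas was sequenced (5 per group) with a library kit that does not keep strand. The deposited FPKM were made by the authors: ribosomal RNA reads were removed, reads were aligned with HISAT2 (2.1.0 in the submitters' processing notes, another release in the methods) to mm10, and stringtie, cuffquant and cuffnorm gave FPKM per gene and mouse. The notes also list Bowtie2 2.2.3 and HTSeq 0.6.0. Counts were not used here, so depth is unknown and the count test of the study was replaced by limma 3.58.1 (R 4.3.3) with a variance trend on log2(FPKM + 1).

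Each comparison used its own 10 mice, the interaction all 20. Genes needed at least 1 FPKM in at least 5 mice, and p-values were adjusted by Benjamini-Hochberg over all genes tested. All 79 members passed this filter in each comparison. Symbols were matched to GENCODE M21 for 43285 of 43422 genes. Near-identical copies were found with BLAST+ 2.17.0 (95% identity over 90% of the coding sequence). The fit was tested on simulated data. Sums and lists are given without a test. Values of some single genes are not reported here. Genes were named by rule: the 5 largest and smallest changes per comparison, the 5 highest and lowest levels, the role and paralog lists, and called genes of the other lists, of which a selection is given. The further genes given per mouse (Rps4l, Rack1, Npm1, Acta1, Xist) were chosen with their values known, as were all members and lists, since earlier results of these data were known. Alternatives changed the pseudocount, filter, normalization, variance trend, mouse weights, replicate block, the groups in the fit and the mice left out.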

Additional observations from a re-analysis of the deposited data

Results flagged for a closer look

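For 24 measures in 4 groups of 5 mice, the gap between the highest or lowest mouse and the next was set against the range of the group (Dixon's criterion), and 14 of 96 groups exceeded it, where chance gives about 1 in 20. 10 of the 14 came from saline-treated Plod1-/- replicate 3, which was high. Its summed ribosomal protein FPKM was 25953 against 16750 to 18904 in the 4 others, and the share without mitochondrial genes 7.64% against 5.50 to 6.08%. In this mouse Rpl5 had 159 FPKM against 118 to 122 FPKM in the others, Rplp0 996, Rpsa 349, Rpl11 141, Rpl10 389, Rps21 385, Rps4x 568 and Rps6 529 FPKM. In Ang II-treated Plod1-/- replicate 5, Rps18 had 168 FPKM against 212 to 221 FPKM in the others and Rps6 421 FPKM against 538 to 569 FPKM. In Ang II-treated WT replicate 1, Rps18 had 153 FPKM against 77.0 to 98.8 FPKM in the others and Rplp0 1172 FPKM against 582 to 705 FPKM. The measures share mice and are not independent.

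The response to Ang II differed between the genotypes by the interaction test (limma, adjusted p below the threshold) in 72 members. The differences of the log2 fold changes, Plod1-/- minus WT, of 17 members with a called difference were 1.26 for Rpl22l1, 1.26 for Rpsa, 1.24 for Rps15a, 1.23 for Rps12, 1.21 for Rpl41, 1.19 for Rpl12, 1.14 for Rplp0, 1.11 for Rps18 and 1.02 for Rplp1. They were 0.90 for Rpl10a, 0.88 for Rpl13a, 0.85 for Rps19, 0.82 for Rps4x, 0.80 for Rpl11, 0.72 for Rps6, 0.72 for Rpl5 and 0.48 for Rpl7l1.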

How the results depend on the processing

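The members' medians kept their sign in the 5 comparisons, as did the log2 fold changes of called genes recomputed singly. Signs of other members varied: the estimates above 0 numbered 76 to 79 under Ang II in Plod1-/- mice, 1 to 5 in WT mice and 0 to 13 between the saline-treated genotypes. Of 452 alternative values of counts and medians 410 stayed within their limits and 42 moved, and of 1302 values of single genes 95 lost their call. A median stayed when it shifted by less than 0.213, the pooled SD within groups of the members' mean log2 level. A count stayed when it was equal or close in ratio, so 0 against 0 also stayed. The members lower in Plod1-/- and higher in WT mice under Ang II, for instance, numbered 0 whichever mouse was left out. With one mouse left out at a time, the members higher in Plod1-/- mice under Ang II (47) ranged over 29 to 66 and the DEGs among them (1) over 0 to 3. The members lower in WT mice (24) ranged over 1 to 56, those higher between the Ang II-treated genotypes (67) over 43 to 73 and the DEGs (6) over 2 to 14, those lower between the saline-treated genotypes (0) over 0 to 1, those with an interaction (72) over 68 to 78 and its DEGs (16) over 11 to 23. Over the same fits, 17.9 to 29.2% of all genes were higher in Plod1-/- mice and 10.1 to 35.9% lower in WT mice. Between the Ang II-treated genotypes 12.9 to 26.7% were higher, and 20.0 to 28.5% in the interaction. Without a filter on low values the first, WT and Ang II genotype counts were 28, 1 and 44 (8.67, 3.68 and 5.40% of all genes). Quantile normalization gave 50 members lower in WT mice, 3 DEGs between the Ang II-treated genotypes and 0 in Plod1-/- mice. Weights per mouse gave 56, 11 and 0 for the same 3. Of all genes, 24.1% were lower in WT mice under quantile normalization and 43.1% under weights. Without mitochondrial genes there were 2 DEGs between the Ang II-treated genotypes, 0 in Plod1-/- mice and 7 in the interaction, and with equal sums of the genes other than mitochondrial and ribosomal protein genes 0 in Plod1-/- mice. Without both libraries with Xist RNA 25 members were higher (26.7% of all genes) and 0 were DEGs in Plod1-/- mice. The cause of these shifts was not tested, other than that leaving out mice leaves fewer samples and dropping the filter tests more genes.

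No consistent pairing by replicate number was seen: mice of the same number in 2 groups deviated together (correlation over 0.1) in at most 2 of 5 pairs in any comparison, and not every mouse correlated best with its own number. The highest such correlation was 0.434, between the Plod1-/- groups, where 2 of 5 mice correlated best with their own number. With 5 mice per group this check could miss a partial pairing. With the replicate number as a block, 14 members were lower in WT mice and 40 were higher in Plod1-/- mice under Ang II (16.5% and 22.2% of all genes). Quantile normalization also moved the share of all genes called higher and lower from 20.8% and 10.4% to 16.3% and 16.7% between the Ang II-treated genotypes, from 23.8% and 20.1% to 19.7% and 27.1% in Plod1-/- mice and from 23.8% and 14.1% to 19.0% and 19.6% in the interaction. The members' medians were then 0.37 (-0.06 over all genes) in Plod1-/- mice, -0.40 (-0.12 over all genes) in WT mice and 0.65 (-0.03 over all genes) between the Ang II-treated genotypes. FPKM carry no read number, so no counting error could be given.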
